A study of Homo sapiens with 6 samples.

Results

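The 77 protein-coding genes for mitochondrial ribosomal proteins, taken by symbol (MRPL or MRPS, a number and an optional letter, pseudogenes left out), were followed in PANC-1, an established human pancreatic cancer cell line. They were 77 of the 42902 gene IDs counted. RNA sequencing compared 3 libraries of cells with the genotype and treatment label shRRM2, a short hairpin RNA against RRM2, with 3 libraries of cells with a control hairpin (shNC; genotype WT, treatment shControl), to look for genes that RRM2 regulates. The product of RRM2 is a subunit of ribonucleotide reductase, which makes the deoxynucleotides for DNA synthesis. The labels do not say how many hairpins were used, whether the cells were 1 clone, or whether libraries came from separate cultures, so the p-values speak only of differences among these libraries, and replicate spread may be technical.

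Mitochondria carry their own ribosome, which translates the few proteins encoded by mitochondrial DNA, all of them subunits of the respiratory chain or of ATP synthase. Its ribosomal RNAs (12S in the small subunit, 16S in the large) are transcribed from mitochondrial DNA, whereas its proteins are encoded in the nucleus, made in the cytosol and imported. Some of these proteins have counterparts in the bacterial ribosome and others are found only in mitochondria. The MRPS symbols stand for the small subunit and the MRPL symbols for the large one, except that the products of MRPS30 and MRPS18A are part of the large subunit and are counted with it here.

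Promoter sequence was read from RefSeq (GRCh38.p14), from 250 bases before to 50 bases after the annotated start, for the 69 members that matched the table (its first window for each gene). The 3 windows below belong to MRPS33, the member with the largest fall, MRPL42, with the largest fall among members holding a YY1 word, and MRPL40, the 1 member that rose. Capitals mark AAGATGGC, a word bound by the transcription factor YY1.
MRPS33 (chr7:141014903-141015202, - strand): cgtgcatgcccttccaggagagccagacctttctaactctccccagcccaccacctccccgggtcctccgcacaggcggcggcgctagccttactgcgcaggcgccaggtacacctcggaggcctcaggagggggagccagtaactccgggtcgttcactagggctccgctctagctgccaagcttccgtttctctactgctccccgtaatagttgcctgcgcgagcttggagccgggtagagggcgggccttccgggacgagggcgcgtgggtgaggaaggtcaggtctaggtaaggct
MRPL42 (chr12:93467264-93467563, + strand): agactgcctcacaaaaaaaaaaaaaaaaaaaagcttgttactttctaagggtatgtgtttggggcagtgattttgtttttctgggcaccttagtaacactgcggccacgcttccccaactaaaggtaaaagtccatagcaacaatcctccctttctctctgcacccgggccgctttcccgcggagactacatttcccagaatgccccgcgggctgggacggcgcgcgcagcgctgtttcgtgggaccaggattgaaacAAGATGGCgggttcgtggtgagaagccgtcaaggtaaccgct
MRPL40 (chr22:19432295-19432594, + strand): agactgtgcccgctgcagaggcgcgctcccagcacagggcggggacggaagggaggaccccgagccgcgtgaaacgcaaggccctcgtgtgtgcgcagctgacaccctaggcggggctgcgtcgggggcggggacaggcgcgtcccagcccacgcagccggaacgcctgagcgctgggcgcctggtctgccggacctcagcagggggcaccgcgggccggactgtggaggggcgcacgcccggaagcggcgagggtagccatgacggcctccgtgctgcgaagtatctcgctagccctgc

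Stretches of 30 bases around the same word are shown for 4 more members, 2 that fell (MRPS27 and MRPS30) and 2 that did not pass the test (MRPL51 and MRPS24), so that the word can be seen on both sides of the call.
MRPS27 (chr5:72320206-72320235, - strand): tggtacgctccAAGATGGCtgcctccatag
MRPS30 (chr5:44808949-44808978, + strand): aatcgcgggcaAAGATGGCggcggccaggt
MRPL51 (chr12:6493223-6493252, - strand): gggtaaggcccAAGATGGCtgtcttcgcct
MRPS24 (chr7:43869480-43869509, - strand): ccgcttggcccAAGATGGCggcctccgtgt

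Mitochondrial ribosomal protein transcripts were mostly lower in shRRM2 cells. Of the 77 members, 47 fell and 1 rose at an adjusted p under 0.05, and 29 did not pass the test, whereas 26.1% of all 15866 tested genes fell and 26.0% rose. The share of members that fell was 61.0% and the share that rose 1.30%. All shRRM2 libraries lay below all shNC libraries for 45 members (58.4%), against 28.6% of all tested genes. All shRRM2 libraries lay above for 1 of 77 members, MRPL16, against 4628 of all 15866 tested genes. The median log2 fold change of the members was -0.22, with quartiles of -0.35 and -0.06, and that of all tested genes was -0.01. Within the members' range of mean level, 31.5% of 9905 genes fell and 28.3% rose, with a median of -0.03. In these bulk libraries, fewer cells holding a transcript and less of it per cell cannot be told apart.

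**Figure D1:**
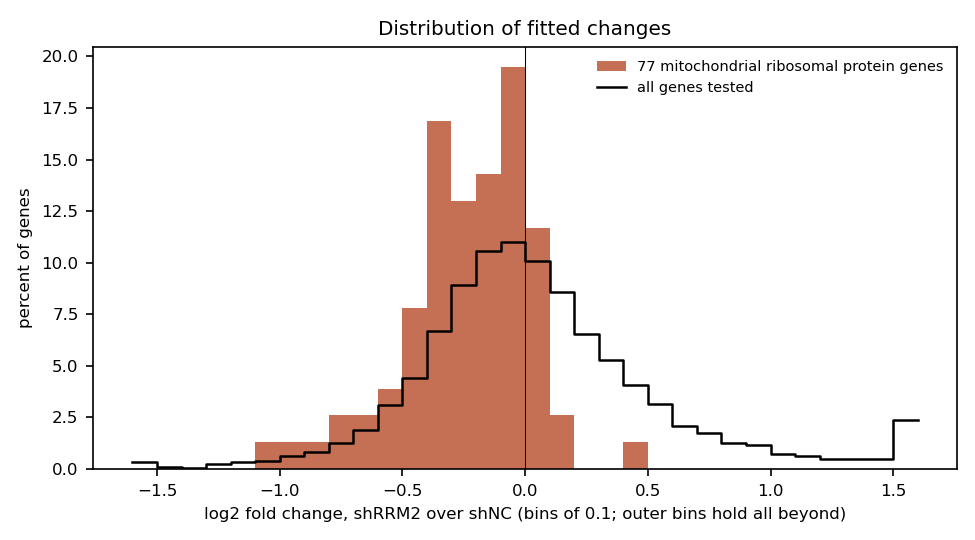
Distribution of log2 fold changes (shRRM2 over shNC, x axis, bins of 0.1) as a percent of genes (y axis) for the 77 mitochondrial ribosomal protein genes and for all 15866 tested genes. The members lie mostly left of 0, with a median of -0.22 against -0.01 for all genes.

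RRM2 itself fell by 2.31 (log2; SE 0.0443, adjusted p = 3.72e-29), at 40.2 CPM (counts relative to the scaled library size) in shRRM2 and 199.7 CPM in shNC. Total counts ran from 17442948 to 19740706 in shRRM2 and from 16606947 to 23300433 in shNC, so that 1 CPM rests on 16.6 to 23.3 counts. Of the epithelial and ductal markers, KRT8 (1636 and 1081 CPM in shRRM2 and shNC), KRT18 (1072 and 787.2 CPM) and KRT7 (673.5 and 707.0 CPM) were abundant. KRT19 had 22 counts and EPCAM 53 counts over all libraries. CDH1 was also on this marker list, and its level is not given here. Markers of acinar and endocrine cells had 0 to 3 counts in all, and the immune markers PTPRC and CD3E, the fibroblast markers COL1A2, DCN and LUM and the endothelial markers PECAM1 and KDR had 0 to 17. CD68 (82.6 CPM in shRRM2 and 26.0 CPM in shNC), COL1A1 (32.0 and 19.3 CPM) and VWF (2.03 and 0.358 CPM) were higher in shRRM2, and their part in the results on the members was not tested.

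Added up over the members, the transcripts gave 4380, 4584 and 4306 CPM in the 3 shRRM2 libraries and 5328, 5189 and 5149 CPM in the 3 shNC libraries. The groups did not overlap, and the mean in shRRM2 was 84.7% of that in shNC. The small subunit genes summed to 1557 ± 44.1 CPM in shRRM2 and 1826 ± 28.1 CPM in shNC, and the large subunit genes to 2866 ± 99.8 CPM in shRRM2 and 3396 ± 70.3 CPM in shNC (SD, n = 3 each). Both subunits were thus at a like share of their shNC level, 85.3% and 84.4%. As a share of all counts, the members took 0.448% ± 0.0123 in shRRM2 and 0.515% ± 0.00508 in shNC. The shRRM2 libraries were not alike: replicate 2 was the highest of its group for 52 of 77 members (67.5%), against 35% of all tested genes. Without that library 48 members fell and 1 rose.

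**Figure D2:**
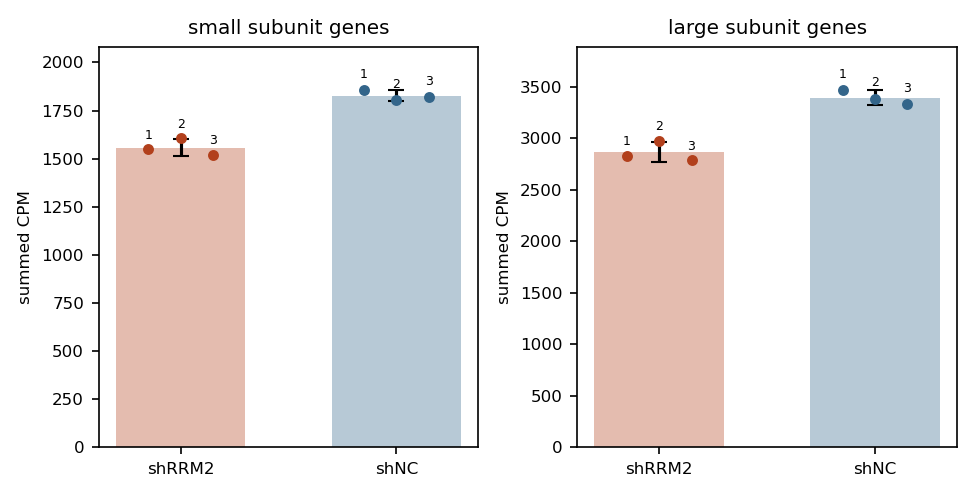
Summed CPM (y axis, from 0) of the small subunit genes and the large subunit genes in shRRM2 and shNC. Bars are means, error bars the SD over 3 libraries, and points the libraries with their replicate number. Each shRRM2 library lies below each shNC library in both panels.

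The members differed widely in the size of the change, with log2 fold changes from -1.03 to 0.41 and an SD of 0.260 between members, against a median SE of 0.0588. A fall of more than 0.5 was measured for 10 members, and of more than 0.3 for 29. The fold change had hardly any rank relation to a member's level or transcript length: Spearman's rho across the 77 genes was 0.00116 with mean log2 CPM and 0.0427 with length, given as a description of genes from the same libraries. Of the 29 members that did not pass, 15 had a 95% interval within 0.2 of 0 on the log2 scale.

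**Figure D3:**
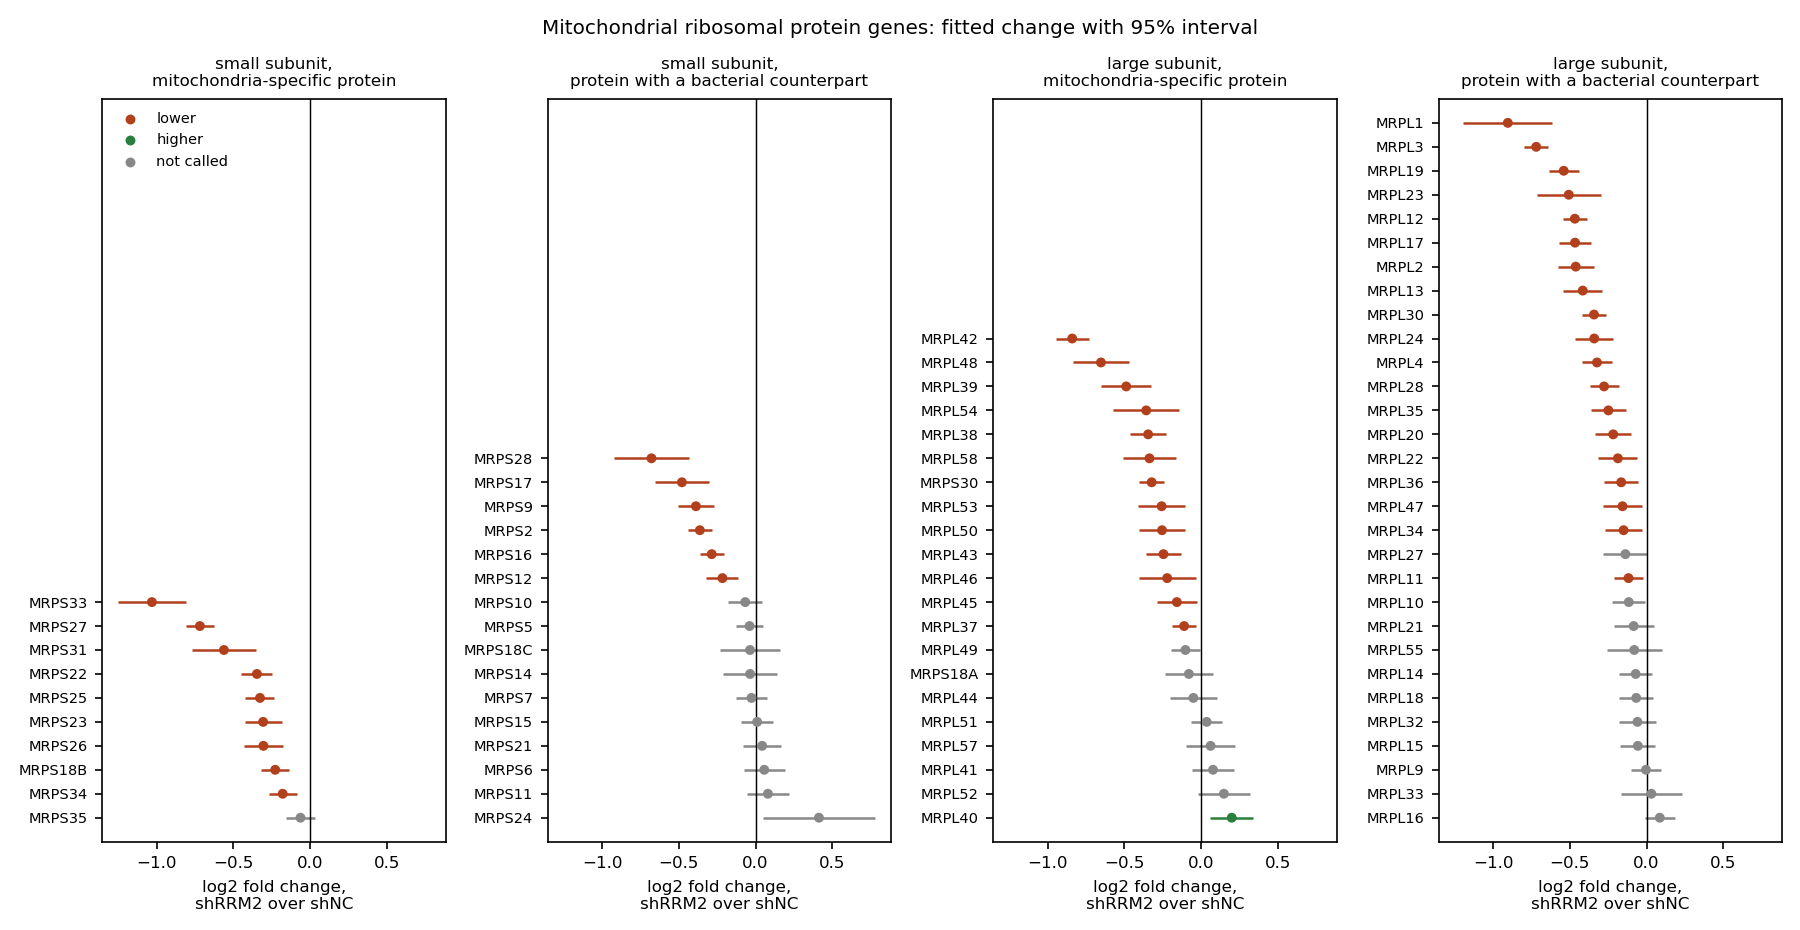
Log2 fold change (shRRM2 over shNC, x axis) of each of the 77 members with its 95% interval, in 4 panels by subunit and class, ordered by the change and coloured by the call. The members run from MRPS33 at -1.03 to MRPS24 at 0.41, and 65 of 77 lie below 0.

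In the small subunit, 15 of 26 members fell and none rose. Among the proteins found only in mitochondria, 9 of 10 fell (90.0%), with a median log2 fold change of -0.32. Among those with a bacterial counterpart, 6 of 16 fell (37.5%), with a median of -0.04. The difference between these classes was not tested. MRPS35, the 1 mitochondria-specific small subunit member that did not pass, had 90.6, 93.4 and 88.1 CPM in shRRM2 and 94.3, 91.9 and 98.5 CPM in shNC (log2 fold change -0.06, adjusted p = 0.257).

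MRPS33 (Gene ID 51650, chr7:141002610-141014952, - strand), a mitochondria-specific small subunit protein, had 8.54, 10.1 and 9.34 CPM in shRRM2 libraries and 18.9, 20.5 and 17.7 CPM in shNC libraries. Every shRRM2 library was far below every shNC library. The fall was the largest of the members, to 48.9% of the shNC level (log2 fold change -1.03, SE 0.109, adjusted p = 9.19e-10).

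MRPS27 (Gene ID 23107, chr5:72219403-72320240, - strand), a pentatricopeptide repeat protein of the small subunit that binds mitochondrial RNA, had 82.3, 83.1 and 76.6 CPM in shRRM2 and 133.4, 126.9 and 138.2 CPM in shNC. The groups were far apart (log2 fold change -0.72, SE 0.0451, adjusted p = 4.18e-15). MRPS31 (Gene ID 10240, chr13:40729128-40771190, - strand), another mitochondria-specific protein, had 12.5, 11.9 and 12.7 CPM in shRRM2 and 17.0, 19.4 and 18.1 CPM in shNC (log2 fold change -0.56, SE 0.101, adjusted p = 1.84e-05). Its groups did not overlap either. The other members of the class that fell were MRPS22, MRPS25, MRPS23, MRPS26, MRPS18B and MRPS34, with changes from -0.35 to -0.18.

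MRPS28 (Gene ID 28957, chr8:79918717-80030259) had the largest fall of the small subunit members with a bacterial counterpart. It had 8.71, 8.86 and 7.90 CPM in shRRM2 and 13.7, 14.6 and 12.4 CPM in shNC, without overlap (log2 fold change -0.68, SE 0.119, adjusted p = 1.26e-05). Its span overlaps the read-through gene TPD52-MRPS28, which had 3 counts in all. MRPS17, MRPS9, MRPS2, MRPS16 and MRPS12, the last a protein of the decoding centre, fell by 0.48, 0.39, 0.36, 0.29 and 0.22 on the log2 scale. The other 10 members of the class, MRPS5, MRPS6, MRPS7, MRPS10, MRPS11, MRPS14, MRPS15, MRPS18C, MRPS21 and MRPS24, did not pass.

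MRPS24 (Gene ID 64951, chr7:43866558-43869517, - strand) had the highest fold change of the members and the fewest counts, 782 in all. It had 6.11, 10.7 and 6.79 CPM in shRRM2 and 6.91, 5.51 and 5.47 CPM in shNC. The groups overlapped, and replicate 2 stood above the other shRRM2 libraries (log2 fold change 0.41, SE 0.179, adjusted p = 0.0552). Without shRRM2 replicate 1 or 3 or without shNC replicate 1 the adjusted p passed, at 0.00878, 0.0256 and 0.0384, and without shRRM2 replicate 2 the change was 0.12 (adjusted p = 0.583). It also passed with library size alone, without a filter and with a filter of 1 CPM in 3 libraries (0.0355, 0.0234 and 0.0483). It overlaps the read-through gene URGCP-MRPS24, which had 2 counts in all. How reads shared by overlapping genes were counted is not given, so the levels of both genes are less certain.

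In the large subunit, 32 of 51 members fell and 1 rose. Here the classes were alike in share: 19 of 30 proteins with a bacterial counterpart fell (63.3%, median -0.18), and 13 of 21 mitochondria-specific proteins fell (61.9%, median -0.22).

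MRPL1 (Gene ID 65008, chr4:77862830-77952785, + strand), the counterpart of the bacterial protein of the L1 stalk, had 7.98, 6.997 and 6.41 CPM in shRRM2 and 16.7, 12.3 and 11.1 CPM in shNC. The groups did not overlap, though the shNC libraries were spread and replicate 1 was the highest (log2 fold change -0.90, SE 0.142, adjusted p = 2.49e-06). MRPL3 (Gene ID 11222, chr3:131462212-131502971, - strand), a core protein of the large subunit and the member with most counts, had 142.8, 144.2 and 139.1 CPM in shRRM2 and 246.9, 233.1 and 221.8 CPM in shNC. Its fall of 0.72 on the log2 scale (SE 0.0385) had the smallest adjusted p of the members, 6.45e-17.

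MRPL19 (Gene ID 9801, chr2:75646783-75662206, + strand), the counterpart of bacterial L19, had 60.1, 62.9 and 60.1 CPM in shRRM2 and 87.5, 88.3 and 90.7 CPM in shNC. The libraries of each group lay close together and the groups far apart (log2 fold change -0.54, SE 0.0484, adjusted p = 2.34e-11). MRPL23 (Gene ID 6150, chr11:1947332-2014944), the counterpart of a protein at the rim of the bacterial exit tunnel, had 12.7, 15.6 and 14.97 CPM in shRRM2 and 21.6, 21.7 and 17.98 CPM in shNC (log2 fold change -0.51, SE 0.102, adjusted p = 8.35e-05). Its groups did not overlap. Its annotated span holds the noncoding gene H19.

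MRPL12 (Gene ID 6182, chr17:81703367-81707517, + strand), the stalk protein that recruits translation factors, had 131.1, 132.1 and 130.5 CPM in shRRM2 and 185.0, 187.0 and 172.1 CPM in shNC. The 3 shRRM2 values were nearly equal and all below shNC (log2 fold change -0.47, SE 0.0385, adjusted p = 3.20e-12). MRPL11 and MRPL10, counterparts of the proteins at the base of the same stalk, had changes of -0.12 and -0.12 with adjusted p of 0.0346 and 0.0620. The call of MRPL11 was lost without shNC replicate 1 or 2 or shRRM2 replicate 1 or 3 (adjusted p from 0.0615 to 0.23), and MRPL10 passed without shNC replicate 3 (0.0411).

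Among the mitochondria-specific large subunit proteins, MRPL42 (Gene ID 28977, chr12:93467514-93516214, + strand) had 47.5, 45.6 and 44.96 CPM in shRRM2 and 85.4, 79.0 and 83.0 CPM in shNC. Every shRRM2 library was well below every shNC library (log2 fold change -0.84, SE 0.0531, adjusted p = 4.82e-15). It has 6 annotated pseudogenes, of which the table lists MRPL42P5, with 9 counts in all. MRPL48 (Gene ID 51642, chr11:73787874-73865133, + strand) had 18.2, 14.6 and 18.3 CPM in shRRM2 and 27.3, 26.4 and 26.4 CPM in shNC (log2 fold change -0.65, SE 0.0907, adjusted p = 2.40e-07). Its groups did not overlap. MRPL58, a peptidyl-tRNA hydrolase built into the large subunit, fell by 0.34 (adjusted p = 0.00111), and MRPS30 by 0.32 (adjusted p = 3.38e-08).

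MRPL40 (Gene ID 64976, chr22:19432545-19436075, + strand), a mitochondria-specific large subunit protein encoded in the region deleted in the 22q11 syndrome, was the 1 member that rose. It had 41.9, 40.2 and 37.4 CPM in shRRM2 and 37.4, 33.1 and 33.7 CPM in shNC. The lowest shRRM2 library was at the level of the highest shNC library, just below it (log2 fold change 0.20, SE 0.0691, adjusted p = 0.0153). The call was lost with DESeq2 (adjusted p = 0.0601) and without shNC replicate 2, shNC replicate 3 or shRRM2 replicate 1 (0.0992, 0.0572 and 0.0811).

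**Figure D4:**
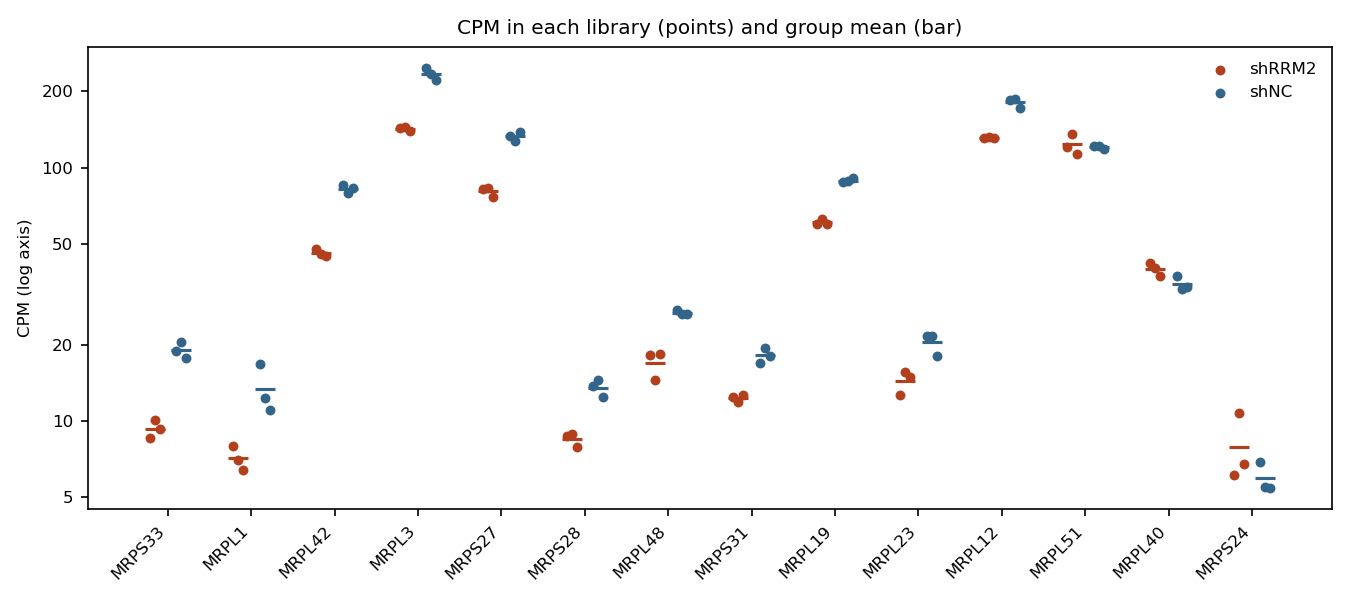
CPM (y axis, log scale) in each library (points) and the group mean (bars) of the 10 members with the largest falls and of MRPL12, MRPL51, MRPL40 and MRPS24, shRRM2 left of shNC for each gene. MRPS33 stands at 8.54 to 10.1 CPM in shRRM2 and 17.7 to 20.5 CPM in shNC, while the groups of MRPL51 overlap.

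Per length of transcript, MRPL51, MRPL3, MRPL49, MRPL12 and MRPL37 had the highest levels of the members. MRPL51 (Gene ID 51258, chr12:6491886-6493262, - strand), a mitochondria-specific protein, led with 246.1 CPM per kb in shRRM2 and 240.1 CPM per kb in shNC. In CPM it had 121.0, 135.5 and 113.5 in shRRM2 and 121.2, 121.3 and 118.5 in shNC. The groups overlapped, and the log2 fold change of 0.04 had a 95% interval of -0.06 to 0.14 (adjusted p = 0.557).

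MRPL49 (Gene ID 740, chr11:65122183-65127371, + strand), also mitochondria-specific, had 90.1, 82.1 and 84.0 CPM in shRRM2 and 94.6, 92.4 and 87.6 CPM in shNC, overlapping groups (log2 fold change -0.10, adjusted p = 0.0736). MRPL37 (Gene ID 51253, chr1:54200167-54225489, + strand) had 169.8, 178.2 and 161.1 CPM in shRRM2 and 183.0, 181.1 and 185.9 CPM in shNC. Its small fall of 0.11 (log2) passed, with SE 0.0380 and adjusted p = 0.0148, but was lost without shRRM2 replicate 3 (log2 fold change -0.07, adjusted p = 0.186) and with library size alone (adjusted p = 0.0997). The order by level therefore held members with a large fall, MRPL3 and MRPL12, beside members with little or no measured change.

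The settings compared gene by gene leave out the test against a minimum fold of 1.2, in which 19 members fell. Of the 47 calls, 39 were kept without any 1 library and in all 13 per-gene settings run. The 8 others were MRPL37, MRPL47, MRPL36, MRPL22, MRPL11, MRPL46, MRPL45 and MRPL34, whose changes lay between -0.22 and -0.11. Leaving out shRRM2 replicate 3 removed 7 of them, all but MRPL22, which was lost without shNC replicate 2 (adjusted p = 0.0635). Some members gained a call instead: MRPL41 rose without shRRM2 replicate 1 (adjusted p = 0.0453), MRPL49 fell without shRRM2 replicate 1 or shNC replicate 3 (0.0283 and 0.0329), MRPL21 and MRPL27 fell without shRRM2 replicate 2 (0.0281 and 0.0268), and MRPL16 rose with library size alone (0.0351). Gene spans of 32 members overlap another annotated gene, and 23 of these fell (median -0.26), while 24 of the 45 without an overlap fell and 1 rose (median -0.16). Annotated pseudogenes exist for 41 members, of which 22 fell and 1 rose, and 25 of the 36 without a pseudogene fell. How reads shared with such copies or with overlapping genes were counted is not given in the sources used here. The levels of members with pseudogenes or overlaps are therefore less certain.

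The promoter windows were searched on both strands for 4 words. AAGATGGC (YY1) was found in 20 of 69 members (29%) and in 3.91% of 15843 protein-coding windows. CCGGAAGT (the ETS family, with GABPA) was found in 11 members (15.9%) and in 6.19% of windows. GCATGCGC (NRF1) was found in 6 members (8.7%) and in 4.26% of windows. CACGTG (the E-box of MYC and MAX) was found in 6 members (8.7%) and in 8.88% of windows. At least 1 of the words was in 30 members (43.5%) and in 20.4% of all windows, and the windows of MRPS33 and MRPL40 printed above held none. No word contains another, and the shares describe letters, not binding. The windows of all genes were not limited to genes that passed the filter on low counts, as all members did. Shares among tested genes alone were not computed.

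The YY1 word often lay just after the start, as in MRPL42, MRPS27, MRPS30, MRPL51 and MRPS24 above. On the strand of the gene and within the 50 bases after the start it was found in 15 members (21.7%), against 2.18% of all windows, with its first letter 7 to 36 bases after the start. The word contains the letters ATG, and whether these are the start codon was not checked. Members with the word fell in 13 of 20 cases (65.0%, median -0.18) and those without in 29 of 49 (59.2%, median -0.25). MRPL42 and MRPS27 fell strongly and MRPL51 and MRPS24 did not pass, so the word was present across the range of changes.

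A protein-coding gene started within 1000 bases upstream, on the opposite strand, for 20 of 69 members (29%), against 12.3% of 15843 genes. Opposite-strand starts downstream of a gene's own start were not counted. Here too the comparison genes were not limited to those that passed the filter on low counts. Of these 20 members 9 fell, and of the 49 without such a partner 33 fell. Both genes fell in 3 pairs: MRPS27 with PTCD2 (-0.72 and -0.41), MRPL30 with MITD1 (-0.34 and -0.50), and MRPS12 with SARS2, the mitochondrial seryl-tRNA synthetase (-0.22 and -0.67). In 2 pairs the genes passed in opposite directions. MRPL50 fell by 0.25 beside a rise of 0.62 for ZNF189. MRPL40 rose by 0.20 beside a log2 fold change of -0.41 for HIRA (adjusted p = 1.28e-08). In other pairs 1 gene or neither passed. MRPL51 did not pass beside a fall of 0.46 for NCAPD2, a condensin subunit. MRPL46 and MRPS11 face each other, and MRPL46 fell by 0.22 while MRPS11 did not pass (log2 fold change 0.08, adjusted p = 0.324). These pairs were named after their values were seen.

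The other genes of the mitochondrial translation system were read from the same fit, and none of the lists was tested as a set. For each list below, the background is that 26.1% of all tested genes fell and 26.0% rose. Within the members' range of mean level, 31.5% fell and 28.3% rose. Of 5 mitoribosome proteins under other symbols, 3 fell and none rose (median -0.19). PTCD3, a small subunit protein, had 81.7, 79.5 and 74.0 CPM in shRRM2 and 105.8, 104.9 and 102.3 CPM in shNC (log2 fold change -0.41, adjusted p = 3.47e-09). DAP3, a GTP-binding protein of the small subunit, fell by 0.19 (adjusted p = 1.62e-04), and CHCHD1 by 0.20 (adjusted p = 0.00870), a call lost without shNC replicate 2, shRRM2 replicate 1 or shRRM2 replicate 3. Of 24 genes for mitoribosome assembly and rRNA modification, 13 fell and none rose (median -0.20), led by METTL15 (-0.78), a methyltransferase of 12S rRNA, MTERF3 (-0.63), of the mitochondrial termination factor family, and MRM1 (-0.60), a methyltransferase of 16S rRNA. The count of 13 was 9 without shRRM2 replicate 1.

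Of 16 translation factors and mRNA handling genes, 11 fell and none rose (median -0.21), where 26.1% of all tested genes fell. MRRF, the ribosome recycling factor, fell by 0.64, the initiation factor MTIF3 by 0.62 and GUF1, a homologue of bacterial elongation factor 4, by 0.57. TUFM, the elongation factor that brings tRNA to the mitoribosome, averaged 338.9 ± 5.88 CPM in shRRM2 and 395.2 ± 6.68 CPM in shNC (SD, n = 3 each), a fall of 0.22 (adjusted p = 2.59e-07). Of 20 mitochondrial aminoacyl-tRNA synthetases and amidotransferase subunits, 13 fell and 2 rose (median -0.34). QRSL1, an amidotransferase subunit, fell by 0.86, and the synthetases NARS2 and SARS2 by 0.68 and 0.67. The synthetases HARS2 and VARS2, named after their values were seen, rose by 0.33 and 0.39.

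Of 8 tested genes for mitochondrial DNA transcription and replication, 6 fell and none rose (median -0.41): the helicase TWNK fell by 0.59, the single-strand binding protein SSBP1 by 0.54, POLG2, the accessory subunit of the mitochondrial DNA polymerase, by 0.50, and TFAM, which packages mitochondrial DNA, by 0.29. POLRMT, the mitochondrial RNA polymerase, had -0.10 (adjusted p = 0.0516). A ninth gene of the list, POLG, was listed at 0 counts in every library. How reads shared by overlapping genes were counted is not given, and whether the POLG transcript was absent was not tested. All 9 regulators of mitochondrial biogenesis fell (median -0.41), where 26.1% of all tested genes fell. MYC averaged 268.1 ± 8.89 CPM in shRRM2 and 466.5 ± 8.40 CPM in shNC (log2 fold change -0.80, adjusted p = 3.55e-20), the coactivator PPARGC1B fell by 0.66 and the transcription factor NRF1 by 0.38. YY1, named because its word was searched above, fell by 0.14 (adjusted p = 6.41e-04). PPARGC1A, a coactivator of mitochondrial biogenesis, had 8.32, 4.73 and 9.06 CPM in shRRM2 and 9.26, 10.6 and 11.6 CPM in shNC (log2 fold change -0.52, adjusted p = 0.0218). The call rested on single libraries: without shRRM2 replicate 2 the change was -0.27 (adjusted p = 0.122).

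**Figure D5:**
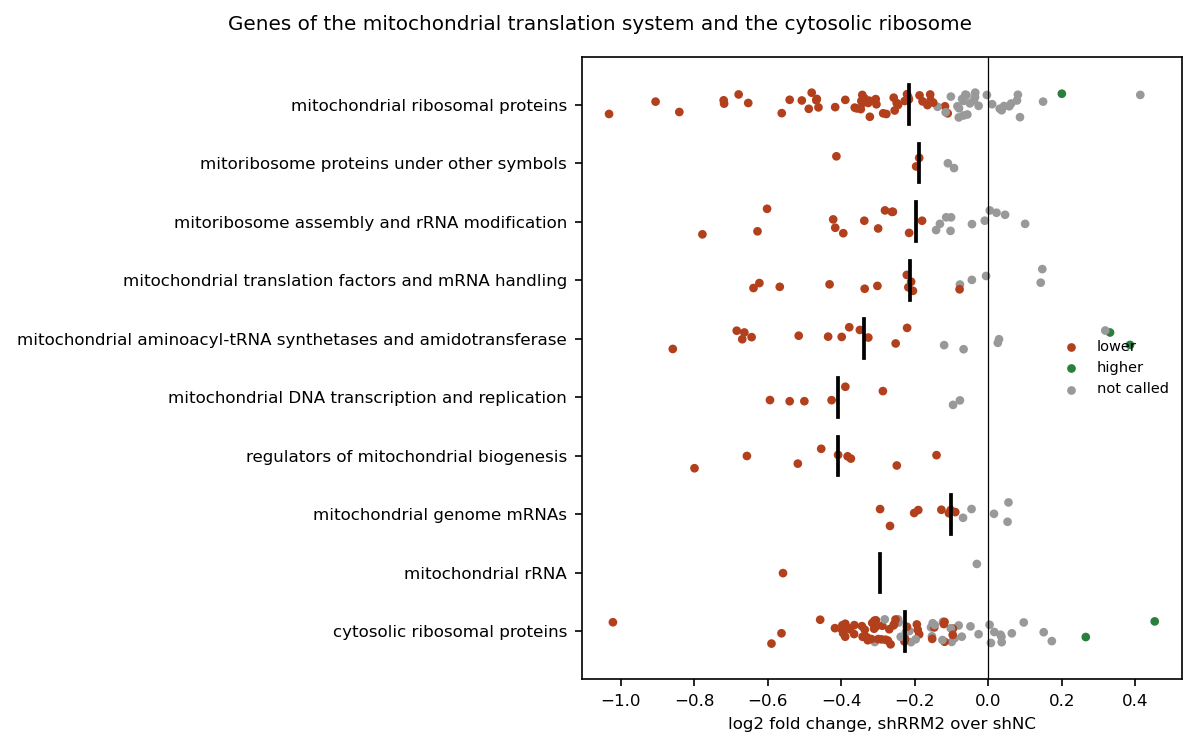
Log2 fold change (shRRM2 over shNC, x axis) of each tested gene (points) in 10 lists (rows), with the list's median as a bar and the call as colour. Falls prevail in the nuclear lists, with medians from -0.41 to -0.19.

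The cytosolic ribosomal protein genes showed a like share: 48 of 82 tested genes (58.5%) fell and 2 rose, with a median of -0.23. Of all tested genes, 26.1% fell and 26.0% rose. They were taken by symbol, so the list also holds like-named genes such as RPL7L1, RPL39L and RPL26L1. The 2 that rose were RPL39L (0.26) and RPL26L1 (0.45). Without shRRM2 replicate 2 the count of falls was 70. The largest called falls were those of RPL7L1 (-0.59, adjusted p = 2.39e-15), RPL14 (-0.56, adjusted p = 3.57e-16) and RPL36A (-1.02, adjusted p = 0.0480), the last on 84 counts in all and lost in most other settings. The mitochondrial ribosome's 2 rRNAs differed from each other. RNR1 (12S) had 677.2, 731.2 and 690.2 CPM in shRRM2 and 1039, 1015 and 1037 CPM in shNC (log2 fold change -0.56, SE 0.0295, adjusted p = 4.80e-17), with no overlap. RNR2 (16S) had 7449, 7828 and 7525 CPM in shRRM2 and 7796, 7571 and 7936 CPM in shNC, which overlapped (log2 fold change -0.03, adjusted p = 0.292). RNR1 counts were 9.09%, 9.34% and 9.17% of RNR2 counts in shRRM2 and 13.3%, 13.4% and 13.1% in shNC, and the exact permutation test of that ratio gave p = 0.1 (two-sided), the smallest that 3 libraries against 3 allow. Polyadenylated RNA was selected for these libraries, and its part in the rRNA counts was not tested. Of the 13 mRNAs of the mitochondrial genome, translated by the mitoribosome, 8 fell and none rose, with a median of -0.10, where 26.1% of all tested genes fell. The falls were led by ATP8 (-0.29), ATP6 (-0.27), both subunits of ATP synthase, and CYTB (-0.20), a subunit of complex III. ND1, a subunit of complex I, and COX1, a subunit of complex IV, had all shRRM2 libraries above all shNC libraries. So did 4628 of all 15866 tested genes. The changes of ND1 and COX1 were 0.05 and 0.05 (adjusted p = 0.0552 and 0.0539). Both passed as rises with RLE factors, library size alone, the 1 CPM filter, DESeq2 and limma-voom, and against a minimum fold of 1.2 none of the 13 passed in either direction.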

How the data were processed

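RNA was measured in 6 PANC-1 libraries, 3 shRRM2 and 3 shNC. Per the labels' protocols, mRNA was isolated on poly-T beads for directional libraries. The deposited values are whole-number read counts per NCBI Gene ID. Fastp 0.23.4 and featureCounts were used with hg38, per the submitters' processing notes. Not given in the sources used here are the aligner, annotation release and strand setting. Also not given is the handling of multi-mapping reads and of reads shared by overlapping genes. The table's columns carry si where the labels carry sh, and were matched by gene name and number. Of 42902 IDs, 40120 matched RefSeq GRCh38.p14, which gave symbols and positions.

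Genes were filtered with filterByExpr (15866 kept, all 77 members among them), scaled by TMM and tested two-sided under R 4.3.3 by the robust quasi-likelihood test of edgeR 4.0.16, with Benjamini-Hochberg adjustment over all tested genes and a threshold of 0.05. Every adjusted p is from this test unless another is named. SE is the log2 fold change's size over the root of F, and 95% intervals use the t distribution. CPM was computed from the deposited counts on TMM-scaled library sizes, and CPM per kb uses the median length of a gene's protein-coding transcripts. Intervals cover the spread between libraries only.

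Alternatives were library size alone, RLE factors, no filter, 1 CPM in 3 libraries, DESeq2 1.42.0, limma-voom (limma 3.58.1), the replicate number as a block, each library left out, an adjusted p of 0.01, glmTreat with a minimum fold of 1.2, and leaving out members that overlap another gene. The genes named were the 10 largest falls and rises among called members, the 5 highest per length, members whose calls depend on 1 library, the 3 called genes with the largest change in each other list, and its defining genes. The members and lists were chosen with earlier results of these data known. Genes named outside this rule were chosen after their values were seen.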

Additional observations from a re-analysis of the deposited data

How the results depend on the processing

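The 47 falls and the 1 rise came out as 47 and 1 with RLE factors, limma-voom and the replicate block, as 46 and 2 without a filter, 47 and 2 with the 1 CPM filter, 41 and 3 with library size alone, 42 and 0 with DESeq2, and 39 and 0 at an adjusted p under 0.01. Against a minimum fold of 1.2 there were 19 and 0, with 1544 falls and 2177 rises among all genes. Of all tested genes, 25.8% fell with RLE factors, 26.2% with limma-voom, 26.1% with the block and 22.8% with library size alone. With the 1 CPM filter 27.1% of 14642 genes fell. Of 26730 genes, 15.3% fell without a filter and 13.1% with DESeq2. The share was 20.7% at an adjusted p under 0.01 and 9.73% against the minimum fold. Without members that overlap another gene there were 24 and 1, and the median was -0.1581. Leaving out each library gave 40 to 49 falls and 0 to 2 rises, with medians from -0.2285 to -0.1689. Of all tested genes, 23.0% to 24.3% fell in those fits.

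The replicate numbers did not pair the libraries. Correlations of the genes' deviations from the group mean, not of their levels, were -0.00677, -0.00339 and -0.0208 for same-numbered libraries. For libraries with different numbers they ran from -0.0158 to 0.0213. With the block 4142 genes fell and 4102 rose. The block changed no member's call. Among the other named genes fitted, it removed that of RPL36A (-1.0222, adjusted p = 0.0669).

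Members near 0, which did not pass in the test over all libraries, changed sign, and so did RNR2. With library size alone, which moved the median of all genes to 0.0292, MRPL9 had 0.0336, MRPS14 0.0015, MRPS18C 0.0014, MRPS7 0.0113 and RNR2 0.0063. MRPL9 had 0.0049 with the 1 CPM filter and 0.0027 with limma-voom. Leaving out each library gave ranges of -0.0554 to 0.0331 for MRPL9, -0.1552 to 0.0294 for MRPS18C, -0.1338 to 0.0502 for MRPS14, -0.048 to 0.0016 for MRPS7, -0.0348 to 0.0373 for MRPS15, -0.0056 to 0.1208 for MRPS21, -0.077 to 0.0915 for MRPL33, -0.0211 to 0.1491 for MRPL41 and -0.0332 to 0.1006 for MRPL51. The cause was not tested. MRPS24 had the fewest counts, 782 in all.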
